A study of Mus musculus with 151 samples.

Results

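The genes described here encode the egg coat and the proteins that act on it at fertilization. They are Zp1, Zp2 and Zp3, which encode the glycoproteins of the mouse zona pellucida, Astl, which encodes the protease ovastacin, and Cd9, which encodes a tetraspanin of the egg membrane. They were chosen by name, with earlier results of these data known. All 5 were present among the 35976 gene names in each of 7 count tables. The samples were RNA-seq libraries from mouse females conceived by natural mating (Natural) or by in vitro fertilization (IVF). In both groups the dams were CF-1 and the sires B6/SJL. IVF embryos came from eggs of superovulated CF-1 females, were cultured to the blastocyst stage and were transferred to pseudopregnant CF-1 females.

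The tables held primordial germ cells (PGCs) in pools at E13.5 (4 Natural, 5 IVF). They also held ovaries at E18.5 (4 Natural, 6 IVF), 12 weeks (4 Natural, 5 IVF) and 39 weeks (5 Natural, 5 IVF). By the study's methods, ovary RNA came from a portion of each frozen ovary or from an entire E18.5 gonad. Single oocytes were from 12 weeks (36 Natural, 40 IVF) and 39 weeks (9 Natural, 10 IVF), and cumulus cells from 12 weeks (5 Natural, 5 IVF). Adult oocytes and cumulus cells came from superovulated offspring. One 39-week Natural ovary carried a tissue label of 40 weeks, and part of the study's methods placed the caesarean delivery of IVF pups a day after that of Natural pups, although the labels give E18.5 for both. The labels named no litter, so p-values measured only the spread between these libraries. Total counts ranged from 839781 to 43363799 per library. Levels are given as CPM, a gene's count scaled to the total count of its library, and fold changes as log2 of IVF over Natural with the standard error (SE) of the fit.

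The zona pellucida is the extracellular matrix that an oocyte lays down around itself as it grows. The transcription factor FIGLA binds E-box sequences upstream of the zona genes together with a partner E protein. At fertilization ovastacin leaves the cortical granules and cleaves ZP2, which blocks further sperm binding, whereas CD9 is needed on the egg membrane for sperm-egg fusion and is also made by many somatic and epithelial cells. Zp1 lies on chromosome 19 (10914296 to 10920601), Zp2 on chromosome 7 (120126762 to 120145291), Zp3 on chromosome 5 (135980105 to 135988624), Astl on chromosome 2 (127338639 to 127357655) and Cd9 on chromosome 6 (125460266 to 125494760), in build GRCm38.p6. Zp1, Zp2 and Cd9 are on the minus strand, and Zp3 and Astl are on the plus strand.

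Upstream sequence was taken from RefSeq (GRCm38.p6) to show where E-boxes stand before these genes. The table held 3 of the 5 genes, and 2 starts of Astl. Each run is the 250 bases before the annotated start, 5′ to 3′ on the gene's strand, with every CANNTG in capitals. This motif reads the same on both strands.
Zp3, chr5:135979855-135980104, plus strand: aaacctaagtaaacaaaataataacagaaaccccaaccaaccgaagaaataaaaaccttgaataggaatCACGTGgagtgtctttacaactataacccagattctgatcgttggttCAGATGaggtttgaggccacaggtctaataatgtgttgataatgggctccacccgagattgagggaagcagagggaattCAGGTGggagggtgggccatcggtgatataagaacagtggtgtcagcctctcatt
Astl, downstream start, chr2:127341386-127341635, plus strand: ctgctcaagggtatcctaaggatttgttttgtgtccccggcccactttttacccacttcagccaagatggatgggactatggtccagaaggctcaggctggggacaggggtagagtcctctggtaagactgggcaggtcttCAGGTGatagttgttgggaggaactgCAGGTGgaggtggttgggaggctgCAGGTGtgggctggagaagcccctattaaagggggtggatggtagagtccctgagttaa
Cd9, chr6:125494761-125495010, minus strand: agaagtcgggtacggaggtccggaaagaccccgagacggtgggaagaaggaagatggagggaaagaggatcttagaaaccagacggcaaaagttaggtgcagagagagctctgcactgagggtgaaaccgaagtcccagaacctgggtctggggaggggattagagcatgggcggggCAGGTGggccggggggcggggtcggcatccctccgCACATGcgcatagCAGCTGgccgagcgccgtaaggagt

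Each of these windows held 3 CANNTG matches. Of 32851 promoters of the same length, 66.2% held at least 1 match and 12.2% at least 3. The matches began at bases -181, -134 and -55 from the start in Zp3, at -109, -83 and -59 in Astl and at -73, -38 and -25 in Cd9. The letters TATAA, searched on the gene's strand, were found at -160 and -29 in Zp3, and 16.0% of promoters held them. The window before the upstream Astl start held neither motif. A match is a description of the letters and not evidence of binding.

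The zona genes and Astl were oocyte transcripts in these data, and Cd9 had the opposite distribution. In 12-week Natural oocytes the mean level per kilobase of exon was 180.5 CPM for Astl, 51.4 for Zp3, 42.7 for Zp1, 32.0 for Zp2 and 3.26 for Cd9 (n = 36 oocytes). In cumulus cells of the same age Cd9 stood at 145 ± 48.2 CPM in Natural and 121 ± 15.9 CPM in IVF libraries (SD, n = 5 each). Zp1, Zp2 and Zp3 had at most 4 counts in any cumulus library, and Astl at most 6. The cumulus libraries held 0 Zp3 counts in the IVF group, and 3 counts over that group would be 0.133 CPM.

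**Figure D1:**
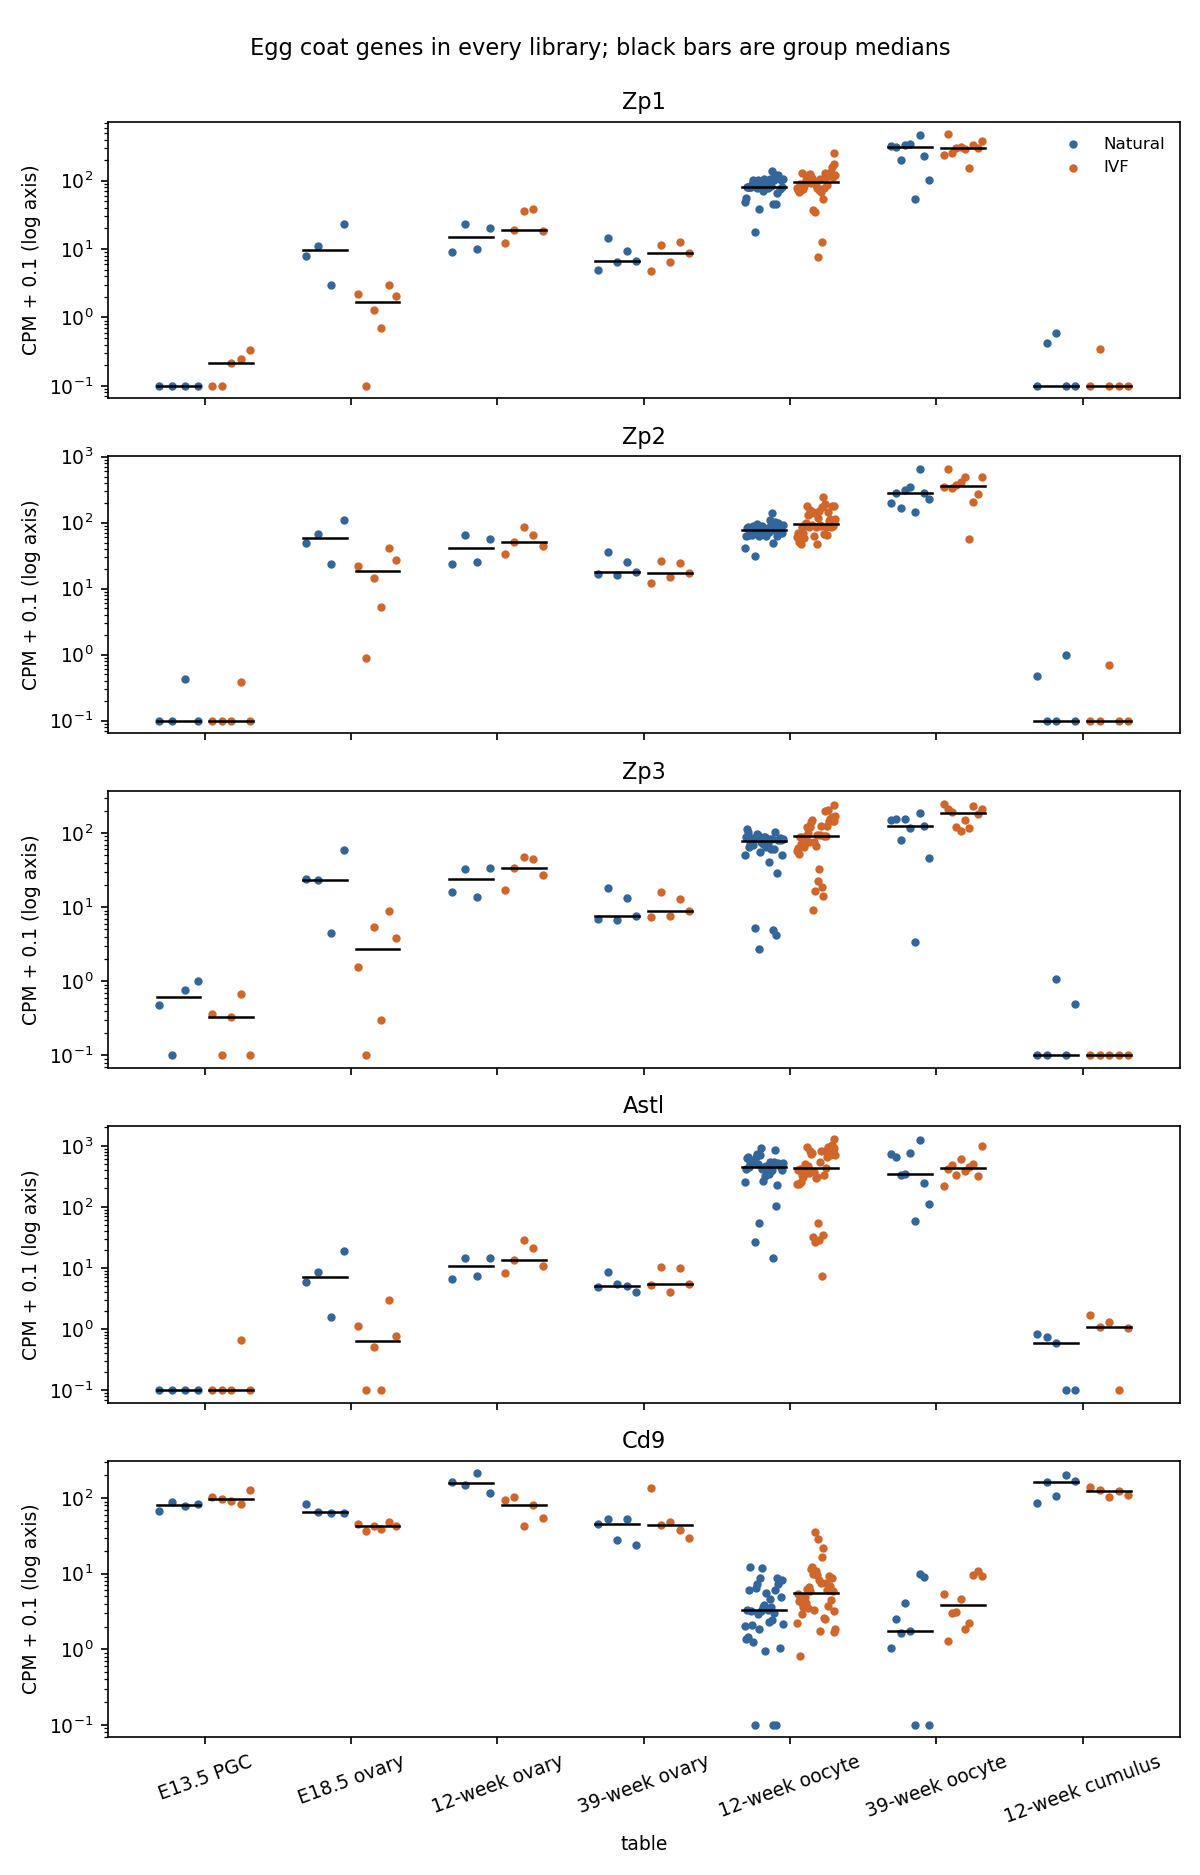
Level of each gene (CPM plus 0.1, log axis) in every library of the 7 tables, with Natural in blue, IVF in orange and black bars at the group medians. Zp1, Zp2, Zp3 and Astl are high in oocytes and at the lower edge in PGCs and cumulus cells, Cd9 is high in PGCs, ovaries and cumulus cells and low in oocytes, and the zona genes and Astl of IVF ovaries are low at E18.5.

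In PGCs, which precede oocyte growth, none of the zona genes or Astl had more than 4 counts in a library, and none passed the filter on low counts. Cd9 was measured at 68.0, 89.6, 79.6 and 83.9 CPM in Natural pools and at 104, 96.0, 91.8, 84.2 and 126 CPM in IVF pools. The groups overlapped, with 4 of 5 IVF pools above every Natural pool. The fitted difference was 0.30 (SE 0.17), with an adjusted p of 1.00 by edgeR's quasi-likelihood test with Benjamini-Hochberg adjustment. That test called 0% of 12763 genes in PGCs at an adjusted p below 0.05. DESeq2 also called 0, and 349 genes had an unadjusted edgeR p below 0.05.

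The clearest difference was in fetal ovaries. At E18.5, Zp1, Zp3 and Cd9 were called lower in IVF than in Natural ovaries. Astl was also called lower but is set apart, because of the filter on low counts described below. Of the 16415 genes tested, 2.75% were called lower and 5.43% in either direction. The 5 genes were chosen with earlier results known, so this share does not test them as a set. Zp1, Zp3 and Astl fell by 3.01, 3.14 and 3.50 on the log2 scale, and Cd9 fell by 0.74. Zp2 had a difference of -1.81 that did not pass the test. All 5 genes passed the filter on low counts. Astl passed only through the Natural ovaries, where it had 16 to 278 counts, against 0 to 20 counts in IVF ovaries. Its place among the tested genes thus rested on the group where it was high.

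Zp1, which cross-links zona filaments, was at 7.87, 11.0, 2.85 and 23.5 CPM in the 4 Natural ovaries. In the 6 IVF ovaries it ranged from 0 to 2.86 CPM with a median of 1.57 CPM. In 5 of 6 IVF ovaries it was below every Natural ovary, and the groups met only at the lowest Natural and the highest IVF value (edgeR SE 0.65, adjusted p = 0.0223).

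Zp3, the major structural zona protein alongside ZP2, was at 23.8, 22.9, 4.33 and 58.1 CPM in Natural ovaries. In IVF ovaries it ranged from 0 to 8.86 CPM with a median of 2.58 CPM. Natural replicate 3 was again the lowest of its group and overlapped with 2 IVF ovaries (edgeR SE 0.81, adjusted p = 0.0399). DESeq2 did not call Zp3 (-3.10, adjusted p = 0.0709).

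Astl was at 5.84, 8.42, 1.47 and 18.7 CPM in Natural ovaries. It ranged from 0 to 2.86 CPM in IVF ovaries, with a median of 0.536 CPM and 2 libraries without a count, and 3 counts would be 0.429 CPM in the shallowest library. As for Zp1, 5 of 6 IVF values were below every Natural value (edgeR SE 0.82, adjusted p = 0.0284). This p-value carries the limit given above, that Astl passed the filter only through the Natural ovaries.

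Zp2, which carries the site that ovastacin cleaves, was the most abundant zona transcript per kilobase in these ovaries. It stood at 49.3, 66.2, 23.5 and 110 CPM in Natural ovaries and ranged from 0.791 to 41.2 CPM in IVF ovaries, with a median of 18.1 CPM. The groups overlapped in 2 IVF ovaries (edgeR SE 0.63, adjusted p = 0.105).

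Cd9 was at 82.3, 65.1, 62.8 and 64.1 CPM in Natural ovaries and ranged from 36.9 to 48.0 CPM in IVF ovaries, with a median of 42.6 CPM. The groups did not overlap, which was so, with IVF lower, for 3.05% of the genes tested (edgeR SE 0.12, adjusted p = 0.0129). Its spread was far narrower than that of the zona genes.

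**Figure D2:**
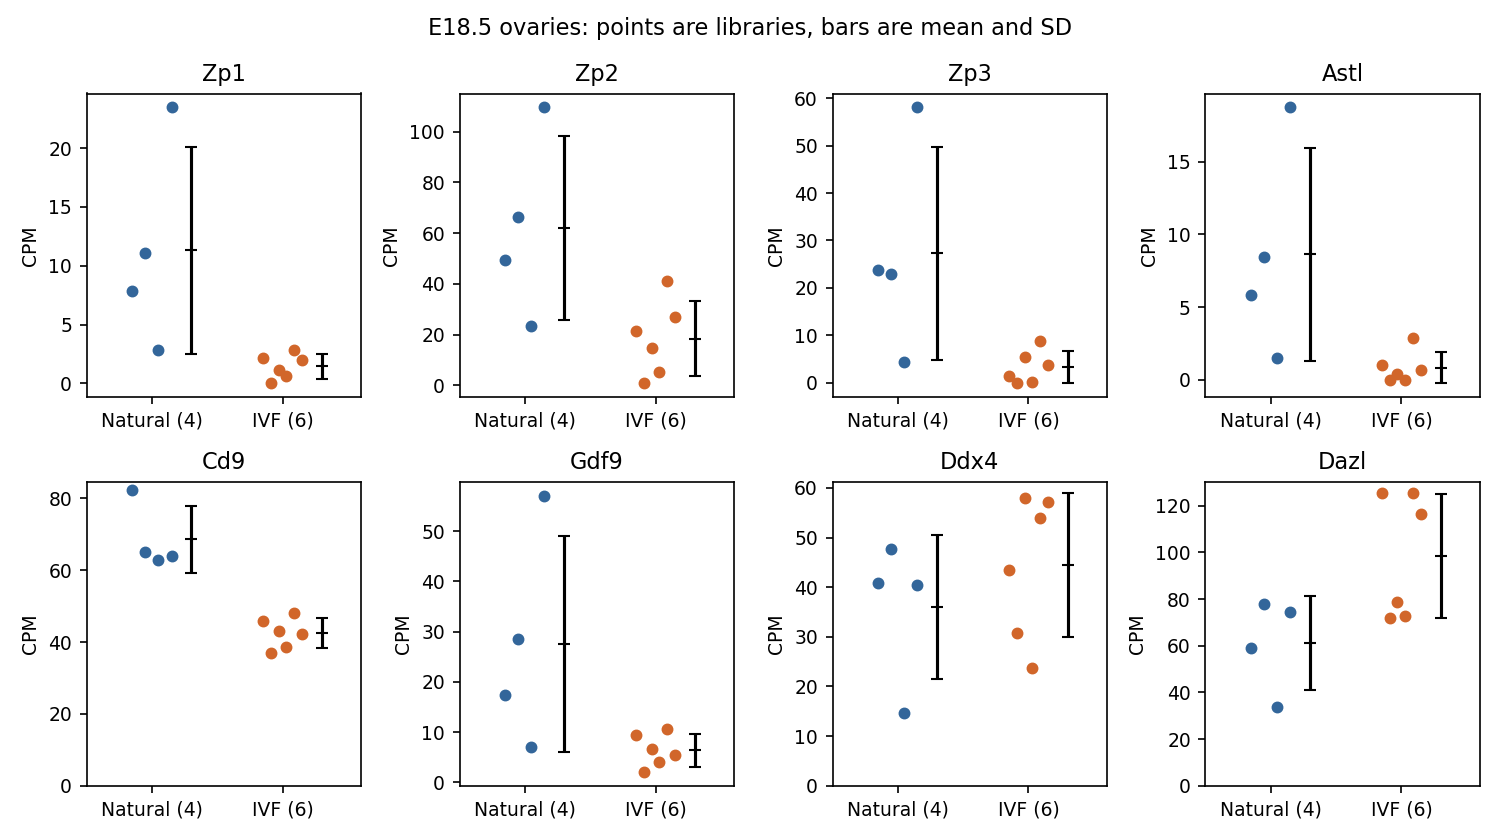
CPM of the 5 genes, of the oocyte growth factor Gdf9 and of the germ cell genes Ddx4 and Dazl in E18.5 ovaries, with 1 point per library and bars at the mean and SD (4 Natural, 6 IVF). Zp1, Zp3, Astl, Cd9 and Gdf9 are lower in IVF ovaries, and Ddx4 and Dazl are not.

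Leaving out single libraries showed how far these calls rested on few ovaries. The Cd9 call held in 10 of 10 fits without 1 library, the Zp1 call in 7, the Zp3 call in 4 and the Astl call in 4. Zp1 lost its call without IVF replicate 4, Natural replicate 2 or Natural replicate 4. Zp3 and Astl lost theirs without any one of these or of IVF replicates 1, 2 and 6. The direction was the same in all 10 fits for each gene, and the adjusted p reached at most 0.0704 for Zp1, 0.125 for Zp3 and 0.0957 for Astl.

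Genes present in germ cells from early stages were not called lower. Ddx4, an RNA helicase, was at 40.8, 47.7, 14.7 and 40.5 CPM in Natural ovaries and 23.8 to 57.9 CPM in IVF ovaries. Dazl, an RNA-binding protein, was at 58.8, 78.0, 33.8 and 74.4 CPM in Natural ovaries and 71.7 to 126 CPM in IVF ovaries. Neither passed the test, and the median of both was 0.47. In bulk ovaries fewer cells of a type and less RNA per cell cannot be told apart.

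Set against the mean log2 CPM of Ddx4 and Dazl, with 0.5 CPM added, Zp1 stood at -2.24 with an SD of 0.70 over the 4 Natural ovaries and at -5.28 with an SD of 0.69 over the 6 IVF ovaries. On that scale Zp3 stood at -1.15 ± 0.96 and -4.78 ± 1.35, and Astl at -2.70 ± 0.85 and -5.93 ± 0.72. Zp2 stood at 0.30 ± 0.46 and -2.44 (IVF range -5.20 to -0.99). The size of the gap depended on the reference. Against the growing oocyte markers Zp1 stood at -0.79 in Natural and -1.80 in IVF ovaries, Zp2 at 1.75 and 1.04, Zp3 at 0.31 and -1.31, and Astl at -1.25 and -2.45. Cd9 was lower in IVF ovaries against Ddx4 and Dazl (0.63 and -0.58) and higher against the growing oocyte markers (2.08 and 2.89). These ratios are descriptions without a test.

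Among the 8 growing oocyte markers, 2 were lower and 0 higher, with a median of -1.80 against 0.00 for all genes tested. Gdf9, a growth factor secreted by the oocyte, fell by 2.14 (SE 0.48, edgeR adjusted p = 0.0256), and Ooep, a component of the subcortical maternal complex, fell by 2.66 (SE 0.61, edgeR adjusted p = 0.0264). Gdf9 was also the only call among 3 tested genes for oocyte-secreted factors. Of 9 genes of cortical granule release, 1 was called: Fetub, a liver-secreted inhibitor of ovastacin, fell by 2.16 (edgeR adjusted p = 0.0264).

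Regulators of zona transcription were measured beside their targets. Of 8 tested, 1 was called, Tcf12, an E protein, which rose by 0.54 (SE 0.13, edgeR adjusted p = 0.0345). Figla was at 43.2, 78.7, 24.4 and 112 CPM in Natural ovaries and 18.9 to 59.1 CPM in IVF ovaries, and was not called. None of 7 sperm-egg membrane genes, 9 secretory and zona processing genes, 7 granulosa markers or 7 oviduct and epithelium markers was called.

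Genes from lists of markers of other cell types were also called at this age. Of 5 luteal and theca markers 3 were higher, namely Lhcgr (2.33), Cyp17a1 (1.28) and Star (0.72), of 5 erythroid markers 2 were higher, Alas2 (1.87) and Hbb-bs (1.38), and of 6 endothelial and immune markers 1, Pecam1 (-0.45), was lower. The summed erythroid level was 583 to 1595 CPM in Natural and 1637 to 4596 CPM in IVF ovaries, without overlap. The luteal and theca list summed to 39.5 to 60.0 CPM in Natural and 56.0 to 68.6 CPM in IVF ovaries at E18.5. In 12-week Natural ovaries it summed to 6617 to 13158 CPM, so its genes were low at E18.5. These calls are of genes and do not count cells. Their part in the egg coat result was not tested.

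In adult ovaries no difference in the zona genes or Astl passed the test. At 12 weeks, when 0.00567% of 17628 genes were called, the differences were 0.61 (SE 0.40) for Zp1, 0.36 (SE 0.36) for Zp2, 0.47 (SE 0.36) for Zp3 and 0.59 (SE 0.40) for Astl. The edgeR adjusted p was 0.670 for Zp2, 0.560 for Zp3 and 0.511 for Astl, and lower than these for Zp1 but far above the threshold. Zp2 was at 23.3, 64.4, 25.1 and 56.4 CPM in Natural ovaries and at 33.3, 50.3, 85.6, 64.1 and 44.6 CPM in IVF ovaries. The IVF values lay within or above the Natural range. Zp1 ranged from 8.82 to 23.4 CPM in Natural and 12.1 to 38.0 CPM in IVF ovaries, Zp3 from 13.4 to 33.7 and 17.1 to 47.5 CPM, and Astl from 6.38 to 14.4 and 8.19 to 29.0 CPM. For each of these 3 genes, 2 of 5 IVF ovaries were above every Natural ovary. IVF replicate 4 had only 2839022 counts in all.

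At 39 weeks, when 0.262% of 17186 genes were called, the differences were 0.11 (SE 0.32) for Zp1, -0.20 (SE 0.26) for Zp2, 0.02 (SE 0.31) for Zp3 and 0.33 (SE 0.30) for Astl, with edgeR adjusted p from 0.566 to 0.977. Zp2 was at 16.5, 36.2, 16.2, 24.9 and 17.6 CPM in Natural ovaries and at 12.0, 26.5, 14.8, 24.7 and 17.4 CPM in IVF ovaries. The groups overlapped, with 2 IVF ovaries below every Natural ovary. Zp1 ranged from 4.77 to 14.2 CPM in Natural and 4.72 to 12.4 CPM in IVF ovaries, Zp3 from 6.53 to 18.0 and 7.18 to 15.8 CPM, and Astl from 3.89 to 8.61 and 3.97 to 10.1 CPM. None of the genes in the 12 lists was called at either adult age.

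**Figure D3:**
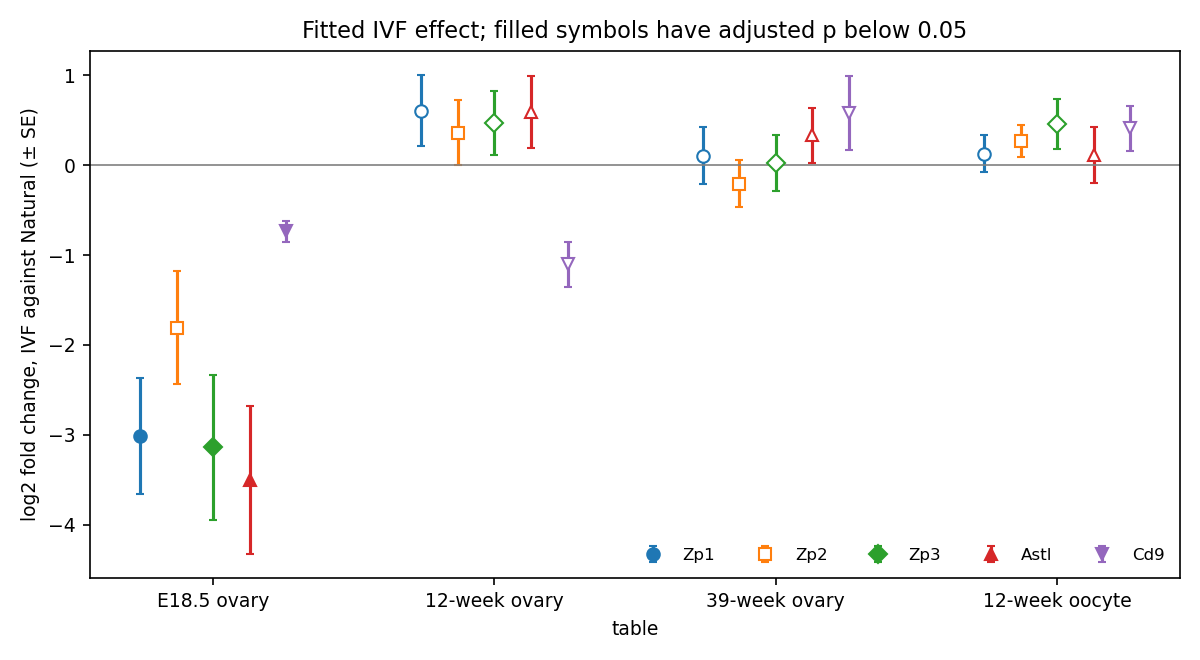
Fitted log2 fold change of IVF against Natural with its SE for the 5 genes in 4 tables, with filled symbols for an adjusted p below 0.05. Zp1, Zp3, Astl and Cd9 are below 0 and filled at E18.5, and every symbol at the later ages is open.

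The difference between ages was itself tested in a joint fit of the 3 ovary tables. The IVF difference at 12 weeks minus that at E18.5 was 3.65 for Zp1 (SE 0.79, edgeR adjusted p = 0.0492) and 4.12 for Astl (SE 0.93, edgeR adjusted p = 0.0492). This contrast called 0.314% of 19724 genes. It was 3.63 for Zp3 (edgeR adjusted p = 0.0892), 2.19 for Zp2 (edgeR adjusted p = 0.189) and -0.34 for Cd9, none of them called. Gdf9 was the only call in the gene lists, at 2.65. Both calls lay near the threshold: they held in 8 and 5 of 29 fits without 1 library, and the adjusted p was 0.0517 and 0.0564 with RLE scaling.

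Within Natural females, no difference in zona genes or Astl between E18.5 and 12 weeks passed the test, with values from -0.46 to 0.55, while 49.7% of genes were called. Within IVF females all 5 genes were higher at 12 weeks, against 30.8% of genes called higher and 59% called in either direction: Zp1 rose by 4.20, Astl by 4.51, Zp3 by 3.53, Zp2 by 1.73 and Cd9 by 0.95. From 12 to 39 weeks the zona genes and Astl had differences of -0.82 to -1.11 in Natural females, where 21.6% of genes were called, and -1.11 to -1.56 in IVF females, where 6.19% were called. None of these passed in the joint fit. In a fit of the 12-week and 39-week ovaries alone, Zp1, Zp2 and Zp3 passed in IVF females (edgeR adjusted p = 0.0378, 0.0188 and 0.0162) and Zp3 in Natural females (edgeR adjusted p = 0.0365), and DESeq2 called Zp1 in IVF females (adjusted p = 0.0438). Age and table cannot be told apart in these contrasts.

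Cd9 had its own course in adult ovaries, and its highest and lowest 12-week values stood beside those of the oviduct gene Ovgp1. At 12 weeks it was at 163, 149, 213 and 118 CPM in Natural ovaries and at 93.9, 104, 43.1, 81.0 and 55.2 CPM in IVF ovaries. The groups did not overlap, as for 3.24% of genes with IVF lower, but the difference of -1.10 (SE 0.25) did not pass in edgeR (adjusted p = 0.152), whereas DESeq2 gave an adjusted p of 0.00448.

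Ovgp1, the oviductal glycoprotein and not an ovarian gene, was at 5446, 2675, 6371 and 2738 CPM in the same Natural ovaries and at 2340, 2681, 2.36, 634 and 276 CPM in the IVF ovaries. The IVF ovary with the lowest Ovgp1 also had the lowest Cd9, and the Natural ovary with the highest Ovgp1 had the highest Cd9. Between these, IVF ovaries 1 and 2, with 2340 and 2681 CPM of Ovgp1, had Cd9 at 93.9 and 104 CPM. Natural ovaries 2 and 4, with 2675 and 2738 CPM of Ovgp1, had Cd9 at 149 and 118 CPM. The 7 oviduct and epithelium markers summed to 3504 to 8075 CPM in Natural and 93.7 to 3271 CPM in IVF ovaries, and none was at 0 throughout a group. Their part in the Cd9 difference was not tested.

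At 39 weeks Cd9 was at 44.8, 52.2, 27.4, 52.6 and 24.0 CPM in Natural ovaries and at 134, 43.8, 47.4, 38.0 and 29.7 CPM in IVF ovaries. The highest value was IVF replicate 1, which held 6352 CPM of Ovgp1 where the other ovaries held at most 106 CPM. With it the difference was 0.58 (SE 0.41, edgeR adjusted p = 0.451), and without it -0.02. Natural ovary 1 had the next highest Ovgp1 (106 CPM), with Cd9 at 44.8 CPM. Natural ovaries 2 and 4 had Ovgp1 at 2.16 and 8.49 CPM and Cd9 at 52.2 and 52.6 CPM.

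The IVF difference in Cd9 at 39 weeks minus that at 12 weeks was 1.65 (SE 0.43, edgeR adjusted p = 0.0400), against 2.71% of genes called. In the same contrast 4 of 7 oviduct and epithelium markers were higher, with a list median of 4.92: Cdh1 (4.96), Krt18 (4.92), Epcam (3.47) and Krt8 (2.92), all epithelial adhesion or keratin genes. Of 9 cumulus and granulosa markers 1 was higher, Ptgs2 (3.83), which makes prostaglandins. The Cd9 call held in 19 of 29 fits without 1 library, and was lost without 39-week IVF replicate 1, where the value was 1.10. Natural ovaries fell by 1.89 in Cd9 from 12 to 39 weeks (edgeR adjusted p = 0.000345) and rose by 1.28 from E18.5 to 12 weeks. From 12 to 39 weeks all 7 oviduct and epithelium markers were also called lower in Natural ovaries, with a median of -3.99. In that contrast 21.6% of genes were called in either direction. The part of these markers in the Cd9 fall was not tested.

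**Figure D4:**
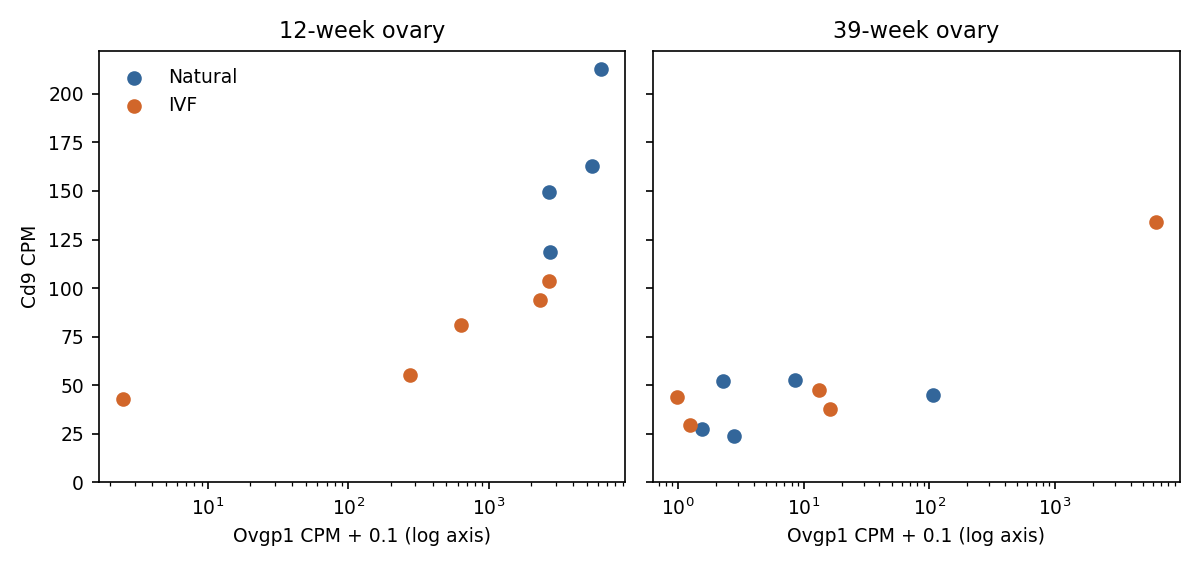
Cd9 against the oviduct gene Ovgp1 (CPM plus 0.1, log axis) in each 12-week and 39-week ovary. At 12 weeks the highest and lowest Cd9 stand at the highest and lowest Ovgp1. The 39-week IVF ovary with 6352 CPM of Ovgp1 has the highest Cd9 of its age, at 134 CPM.

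Some oocytes stood apart from the rest. In 10 of 76 oocytes at 12 weeks (4 Natural, 6 IVF) and in 2 of 19 at 39 weeks (both Natural), Gdf9 was below 1000 CPM, while in the other oocytes it was at least 11063 CPM. The 12-week oocytes in question came from 5 of the 10 donor sets, and their profiles had Spearman correlations of 0.606 to 0.799 with the table's median profile. The cut was set after the values were seen. It rests on Gdf9, whose group means had a Pearson correlation of 0.99 with those of Astl. The group means of Zp3 had a Pearson correlation of 0.93 with those of Astl. Low Astl or Zp3 in these oocytes is therefore no separate result. In these 10 oocytes the median was 11.4 CPM for Zp3 and 29.9 CPM for Astl, against 86.9 and 504 CPM in the other 66. The ranges of Astl did not overlap, and those of Zp3 overlapped only when the groups were pooled, with a highest value of 32.2 CPM against a lowest of 29.1 CPM. The share of all genes without overlap between these oocytes and the rest was not counted. For Zp2 the groups went opposite ways. The 6 IVF oocytes had a median of 147 CPM against 88.3 CPM in the other IVF oocytes, and the 4 Natural oocytes 56.0 CPM against 78.0 CPM, 1 of them, at 31.1 CPM, below every other Natural oocyte. For Cd9 the 6 IVF oocytes had a median of 19.0 CPM and the other IVF oocytes 4.38 CPM. The 4 Natural oocytes had a Cd9 median of 0 CPM and the other Natural oocytes 3.36 CPM.

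In 12-week oocytes, counts were summed over the 5 to 8 oocytes that shared a donor set in the library name, which gave 5 Natural and 5 IVF sets. Some sets of a group shared the leading number of their names, and the labels did not say what it stands for. The tests treated all sets as independent, which such sets may not be. None of the 5 genes was called, and 0.0277% of 14444 genes were. Astl was at 502, 534, 387, 538 and 425 CPM in Natural sets and at 321, 606, 262, 649 and 913 CPM in IVF sets. The IVF sets spanned a wider range on both sides (difference 0.11, SE 0.31, edgeR adjusted p = 0.973).

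Zp3 was at 83.2, 60.5, 78.5, 74.2 and 66.3 CPM in Natural sets and at 69.2, 107, 61.0, 132 and 167 CPM in IVF sets. In 3 of 5 IVF sets it was above every Natural set (difference 0.46, SE 0.28, edgeR adjusted p = 0.826). Zp1 and Zp2 had differences of 0.13 (SE 0.21) and 0.27 (SE 0.18), and Cd9 of 0.41 (SE 0.25). For Cd9 the exact two-sided permutation test of donor set means of log2(CPM + 1) gave a difference of 0.67 with p = 0.0317, and 0.22 with p = 0.183 without the oocytes that stood apart. These p-values were not adjusted for the 5 genes tested.

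**Figure D5:**
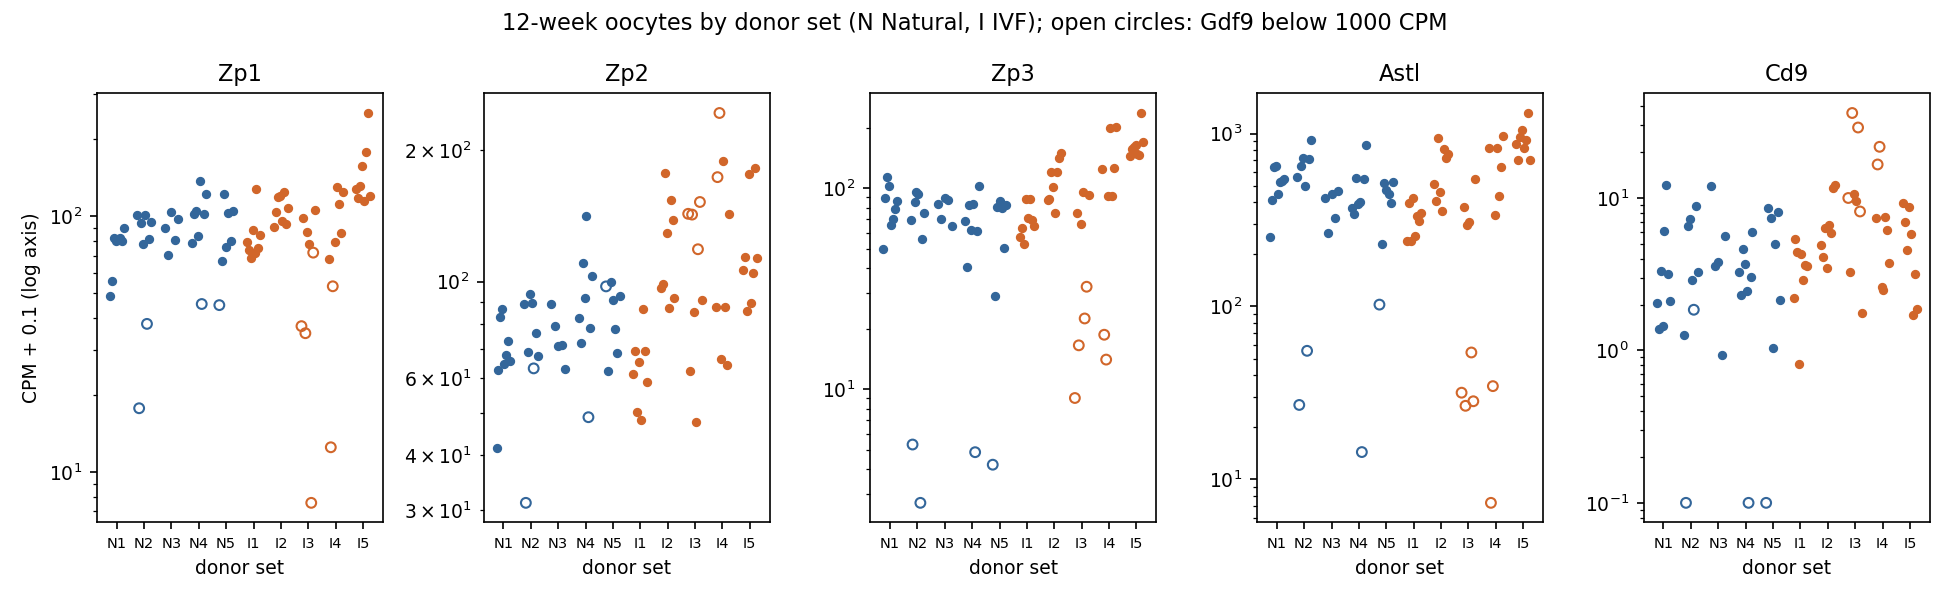
CPM plus 0.1 (log axis) of each 12-week oocyte by donor set (N1 to N5 Natural in blue, I1 to I5 IVF in orange), with open circles for oocytes below 1000 CPM of Gdf9. The open circles are low for Zp3 and Astl in both groups, while for Zp2 those of IVF sets are high (median 147 CPM) and those of Natural sets are mostly low (median 56.0 CPM).

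Among the oocytes that did not stand apart, the zona genes and Astl varied together in 12-week IVF oocytes, with Pearson correlations of 0.73 to 0.92 between pairs, and more loosely in Natural oocytes, with 0.29 to 0.69. Zp3 and Astl had a Pearson correlation of 0.92 and a Spearman correlation of 0.86 over 34 IVF oocytes, and of 0.58 and 0.44 over 32 Natural oocytes. Zp1 and Zp2 had Pearson correlations of 0.75 in IVF and 0.69 in Natural oocytes. The loosest Natural pair was Zp1 and Zp3, with a Spearman correlation of 0.16. Cd9 had Pearson values between -0.24 and 0.15 with each of the other genes. These correlations pooled oocytes over donor sets, and the sets differed in level. Without the oocytes that stood apart, Zp3 ran from 69.2 to 167 CPM over IVF sets and from 69.4 to 83.2 CPM over Natural sets. Astl ran from 321 to 913 CPM over IVF sets and from 387 to 681 CPM over Natural sets. The part of these set differences in the correlations was not tested. At 39 weeks pairs of zona genes and Astl had Pearson values from -0.10 (Zp3 and Astl) to 0.82 (Zp1 and Zp2) over the 10 IVF oocytes. Over the 7 Natural oocytes that did not stand apart they ran from 0.59 to 0.85, so the order of the groups was not that of 12 weeks. Oocytes of a donor set may share an animal, although the labels named none, and all share library depth effects. These correlations are therefore descriptions.

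At 39 weeks the labels named no donor, so each group counted as 1 sample and no test was made. In summed counts Zp1 was at 249.6 CPM in Natural and 314 CPM in IVF oocytes, Zp2 at 271 and 370 CPM and Astl at 491 and 476 CPM. Zp3 was 1.74-fold higher in IVF (107 and 186 CPM), and Cd9 2.25-fold higher (2.46 and 5.54 CPM), where 19.4% of genes were at least 1.5-fold higher. Without the 2 Natural oocytes that stood apart, the Zp3 ratio was 1.35 and the Cd9 ratio 1.61, against 18.8% of genes. The Zp1 ratio then went from 1.26 to 0.996, the Zp2 ratio from 1.37 to 1.23 and the Astl ratio from 0.969 to 0.732, with Astl at 650.4 CPM in Natural and 476 CPM in IVF oocytes. Exact Poisson 95% intervals, which cover counting error only, ran from 105 to 109 and from 184 to 188 CPM for Zp3.

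Across the 14 group means, the genes most like Zp1, Zp2, Zp3 and Astl were highest in oocytes, as these members were. For Astl they were Oas1c, Gdf9 and Oas1e (Pearson correlation 0.99 for each), for Zp2 they were Padi6, Nlrp5 and Dbndd1 (0.99, 0.98 and 0.97), for Zp3 Atp2c2, Padi6 and Speer5-ps1 (0.98 for each), and for Zp1 Paqr6, Slc10a6 and Ninj2 (0.99, 0.98 and 0.98). For Cd9 they were 2510002D24Rik, Osgin2 and Ngfrap1 (each 0.98), which were low in oocytes. All were chosen by this correlation among 15576 genes with at least 5 CPM in a group mean. Their high or low level in oocytes therefore follows from the choice and is no separate result.

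The balance of the 3 zona transcripts differed between tables. As a share of their summed CPM per kilobase, Zp2 took a mean of 53.4% (SD 9.93) over the 4 Natural ovaries at E18.5 and of 72.1% (SD 10.5) over 5 IVF ovaries, leaving out 1 with fewer than 20 zona counts. At 12 weeks it took 39.6% ± 2.31 and 37.8% ± 3.24. In 12-week oocytes that did not stand apart it took 24.2% ± 3.16 (n = 32) and 22.1% ± 4.12 (n = 34). At 39 weeks it took 43.8% in Natural and 39.0% in IVF ovaries. In 39-week oocytes that did not stand apart it took 32.0% in Natural (n = 7) and 32.2% in IVF (n = 10). Ovary and oocyte libraries were made by different methods, so tissue and method cannot be told apart, nor can age and table.

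Cumulus cells were compared with a term for 2 sets of library names, and 0.00973% of 10280 genes were called. Cd9 differed by -0.30 (SE 0.21, edgeR adjusted p = 0.894), with overlapping groups. The value depended on the library set: it was -0.73 in the named set alone (edgeR adjusted p = 0.0068) and -0.0044 in the numbered set alone. Of the Natural libraries, 1 carried a name that oocytes of the IVF group share.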

How the data were processed

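RNA-seq counts per gene were used as deposited. Per the submitters' processing notes, reads were handled with Trimmomatic 0.32, STAR 2.3.0e and featureCounts 1.5.0 on mm10, and the authors deposited raw counts in 7 tables. Between 60.4% and 83.0% of counts from 1 to 49 were even, as when both mates of a pair are counted. Ovary libraries were stranded mRNA-seq, and low-input libraries a modified SMART-seq. The members and gene lists were chosen with earlier results of these data known. Counts were tested with edgeR 4.0.16 (R 4.3.3; TMM scaling, filterByExpr, two-sided quasi-likelihood test, Benjamini-Hochberg adjustment over all genes tested, threshold 0.05) and, as an alternative, DESeq2 1.42.0. Ovary ages were compared in 1 fit of 6 group means. CPM in the text are unscaled by TMM. Exact permutation used 252 regroupings (scipy 1.17.1). Genes were named by a rule: the 5 members, list genes that passed a test (at most 4 of largest change per list and comparison) and the 3 genes most alike each member. Ddx4, Dazl, Figla and Ovgp1 were added after their values were seen, and 39-week cumulus cells were not analysed here. Depth ran from 839781 to 43363799 counts per library. Scripts were tested on simulated data. Alternatives were RLE scaling, no filter, a replicate block, single libraries left out and other oocyte selections.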

Additional observations from a re-analysis of the deposited data

Results flagged for a closer look

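Of 55 groups of 4 to 10 libraries or donor sets checked for 1 value far from the others, 5 held such a value, and chance gives about 1 in 20. These were Cd9 in E18.5 Natural ovary 1 (82.3 CPM), Astl in E18.5 IVF ovary 5 (2.86 CPM), Cd9 in 39-week IVF ovary 1 (134 CPM), Zp2 in 39-week Natural oocyte 7 (646 CPM) and Astl in 39-week IVF oocyte 10 (1001 CPM). Groups with at most 4 counts of a gene were not checked. Cd9 in 39-week IVF ovary 1 stood beside the high Ovgp1 of that library.

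Effects of IVF differed between ages, by the joint test, for Zp1 (12 weeks minus E18.5, 3.65) and Astl (4.12), and for Cd9 (39 minus 12 weeks, 1.65).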

How the results depend on the processing

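Counts of called genes moved with the tool. DESeq2 called 1856 genes in E18.5 ovaries (edgeR 891), 645 at 12 weeks (edgeR 1), 1089 at 39 weeks (edgeR 45), 55 in 12-week oocytes (edgeR 4), 27 in cumulus cells (edgeR 1), 1974 between 39 and 12 weeks in IVF ovaries (edgeR 1220), 1531 for the IVF effect at 39 against 12 weeks (edgeR 534) and 320 for that at 12 weeks against E18.5 (edgeR 62). Without the filter on low counts edgeR called 9 at 12 weeks, 28 at 39 weeks, 19 in oocytes and 104 in cumulus cells. Cumulus cells gave 0 calls without the library set term, 2 in the numbered set alone and 639 in the named set alone. With 12-week and 39-week ovaries alone the IVF effect at 39 against 12 weeks had 3 calls, and Cd9 stood at 1.68 (adjusted p = 0.117). RLE scaling gave 29 calls for the IVF effect at 12 weeks against E18.5, with Zp1 at 3.64 and Astl at 4.11, and DESeq2 gave Zp3 at E18.5 -3.10 (adjusted p = 0.0709). The exact permutation value of Astl in 12-week oocytes was -0.079, opposite in sign to the fit. The cause of these changes was not tested.

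Without single libraries or donor sets, calls ranged from 313 to 1973 at E18.5, 1 to 5 in 12-week and 0 to 123 in 39-week ovaries, 1 to 8 in oocytes, 1 to 5 in cumulus cells, 539 to 2606 between 39 and 12 weeks in IVF ovaries, 80 to 1111 for the IVF effect at 39 against 12 weeks and 0 to 96 for that at 12 weeks against E18.5. At E18.5 Zp1 ranged from -3.33 to -2.37, Zp3 from -3.67 to -2.45 and Astl from -4.32 to -2.77. The IVF effect at 12 weeks against E18.5 ranged from 3.04 to 3.97 for Zp1 and 3.43 to 4.98 for Astl, and that at 39 against 12 weeks from 1.10 to 1.81 for Cd9 and -0.46 to 0.049 for Astl. Signs changed at 39 weeks for Zp1 (-0.055 to 0.35), Zp2 (-0.34 to 0.0016), Zp3 (-0.16 to 0.27) and Cd9 (-0.020 to 0.75), in 12-week oocytes for Zp1 (-0.10 to 0.25) and Astl (-0.20 to 0.30), and between E18.5 and 12 weeks in Natural ovaries for Zp3 (-0.45 to 0.57).

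Replicate numbers did not pair the samples: same-numbered deviations correlated from -0.13 to 0.01 at E18.5, -0.36 to 0.25 in 12-week ovaries, -0.01 to 0.40 in 39-week ovaries and -0.07 to 0.54 in PGCs. With a replicate block the fits called 3 genes at E18.5, 0 in the 12-week and 24 in the 39-week ovaries, and E18.5 values were -3.43 for Zp1, -4.32 for Zp3, -4.28 for Astl and -0.77 for Cd9, with adjusted p from 0.185 to 0.217. Of the 656 alternative values of the main comparisons, 484 kept their direction and side of the threshold or, for a count of calls, stayed within 1.5 times of it or, for a value without a test, moved by less than the spread between replicates. Levels of a few counts, as for Zp3 and Astl in IVF ovaries at E18.5, were limited by depth.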
